A study of Mus musculus with 9 samples.

Results

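The genes described here are 38 genes of the NRF2 pathway and of the glutathione, thioredoxin, peroxiredoxin and pentose phosphate systems, measured by RNA-seq in mouse CD8+ T cells. They were taken from a list of symbols, by a rule that uses no measured value, and all 38 were found among the 48709 rows of the expression table. In 37 of them the mean reached 1 TPM (a level that corrects for transcript length and for the size of the library) in at least 1 group. The exception was Gsta4. The cells fell into 3 groups of 3 libraries each: cells given OVA peptide together with citraconate (OVA/Citra), cells given OVA peptide alone (OVA), and cells without the peptide (CTRL). OVA peptide, part of the egg white protein ovalbumin, stimulates T cells whose receptor recognises it, and citraconate is a small dicarboxylic acid, an isomer of itaconate. All libraries share the same cell type label. The strain, age and genotype of the mice, the doses, the length of culture and the number of animals are not stated in the labels, and a group given citraconate without the peptide was not analysed here. The labels do not say if libraries of a group stem from different animals or cultures. The p-values below therefore measure the spread between libraries, which may be technical.

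NRF2, encoded by Nfe2l2, is a transcription factor that binds antioxidant response elements together with small MAF proteins and switches on genes for glutathione synthesis, detoxification and NADPH supply. Under basal conditions KEAP1 holds NRF2 for degradation, and electrophiles or oxidants that modify KEAP1 cysteines release it. The glutathione and thioredoxin systems use NADPH to reduce peroxides and protein disulfides, and T cells draw on both when they are activated and divide.

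The core of the antioxidant response element, written TGACNNNGC, was looked for on both strands in the 250 bases before each gene's start in RefSeq (mouse assembly GRCm38.p6, which is not the build named in the submitters' processing notes). An entry was found for 33 of the 38 genes, with 41 promoters. The core lay in 7 of these promoters (17.1%), one each for Nfe2l2, Gclm, Gstm5, Txnrd1, Prdx1, G6pdx and Sod1, against 3338 of all 32851 promoters of the same length (10.2%). The E-box CACGTG, searched in the same way, lay in 1 promoter (2.44%), that of Prdx4, against 6.02% of all promoters; it overlapped no antioxidant core. Printed as examples are the stretches before Txnrd1 and G6pdx, which were higher in OVA than in CTRL, and before Prdx1 and Gclm, which were lower. They were chosen after the values were seen, and a link between the core and the direction of change was not tested. The capitals mark the core, which in these 4 stretches reads as its reverse complement GCNNNGTCA, with its first base 92, 57, 133 and 134 bases before the start of Txnrd1, G6pdx, Prdx1 and Gclm. Each stretch is written 5′ to 3′ on the strand of its gene: chr10:82858956-82859205 on the plus strand, chrX:74428881-74429130 on the minus strand, chr4:116685349-116685598 on the plus strand and chr3:122245307-122245556 on the plus strand. RefSeq holds 2 more starts of Txnrd1, and the core was not in the window before either of them.
Txnrd1: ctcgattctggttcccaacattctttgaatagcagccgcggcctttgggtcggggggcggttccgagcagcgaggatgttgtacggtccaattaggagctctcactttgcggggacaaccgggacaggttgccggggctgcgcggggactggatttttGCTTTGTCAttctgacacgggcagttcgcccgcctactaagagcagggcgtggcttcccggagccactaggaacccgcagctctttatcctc
G6pdx: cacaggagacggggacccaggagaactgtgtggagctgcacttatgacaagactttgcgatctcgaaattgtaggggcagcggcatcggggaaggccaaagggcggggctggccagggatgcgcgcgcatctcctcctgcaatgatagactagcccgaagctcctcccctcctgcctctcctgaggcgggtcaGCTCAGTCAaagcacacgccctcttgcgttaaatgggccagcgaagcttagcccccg
Prdx1: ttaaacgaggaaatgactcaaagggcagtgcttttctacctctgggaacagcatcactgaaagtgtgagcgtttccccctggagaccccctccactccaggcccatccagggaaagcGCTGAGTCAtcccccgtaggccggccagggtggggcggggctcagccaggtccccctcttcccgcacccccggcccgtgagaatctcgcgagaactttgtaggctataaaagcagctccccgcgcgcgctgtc
Gclm: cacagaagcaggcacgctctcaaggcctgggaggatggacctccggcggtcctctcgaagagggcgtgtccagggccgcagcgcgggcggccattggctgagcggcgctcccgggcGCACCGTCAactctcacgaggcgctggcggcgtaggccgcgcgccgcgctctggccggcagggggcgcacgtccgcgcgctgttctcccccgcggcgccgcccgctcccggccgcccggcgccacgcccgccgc
A match of these letters is a description of the sequence and not a measured binding site. A window without a match does not show that a gene lacks the element. Variants of the core and sites farther from the gene were not searched.

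The libraries held 14754470 to 17384330 reads assigned to genes. The 8 T cell markers, among them Cd3e, Cd8a and Thy1, were present in every library. Their summed level was 6696 to 6967 TPM in OVA/Citra, 4021 to 4944 TPM in OVA and 7562 to 7965 TPM in CTRL. Cd3d, Cd3e, Cd3g, Cd247, Cd8b1 and Lck had the order of that sum. Cd8a was instead highest in OVA/Citra, with 348, 280 and 347 TPM. It had 147, 103 and 177 TPM in OVA and 217, 211 and 224 TPM in CTRL. Thy1 overlapped between all groups, at 2460 to 2879 TPM in OVA/Citra, 2696 to 2761 TPM in OVA and 2628 to 2728 TPM in CTRL. Markers of other cells moved with the groups. The summed level of 5 natural killer markers was 1556 to 1647 TPM in OVA/Citra, 1430 to 1465 TPM in OVA and 855.5 to 888.7 TPM in CTRL, most of it Nkg7, which CD8+ T cells also express. The order differed between the markers: Nkg7 and Klrk1 were highest in OVA/Citra, whereas Ncr1, Klrb1c and Klra8 were highest in OVA. Ncr1 had 3.57, 5.04 and 3.62 TPM in OVA/Citra, 24.1, 31.1 and 23.7 TPM in OVA and 0 in CTRL, and Klrb1c had 13.9, 21.7 and 12.3 TPM in OVA/Citra, 54.2, 71.3 and 45.5 TPM in OVA and 0.642, 1.71 and 0.390 TPM in CTRL. The 8 myeloid and dendritic markers summed to 7.08 to 8.17, 11.6 to 15.2 and 6.25 to 8.18 TPM in OVA/Citra, OVA and CTRL, with Fcgr1 and Elane at 0 in all libraries. The B cell marker Cd79b had 0.349, 0.353 and 0 TPM in OVA/Citra, 0.107, 0.982 and 0.505 TPM in OVA and 9.78, 12.09 and 13.8 TPM in CTRL. The 5 stromal and epithelial markers, mostly Pecam1, summed to 64.4 to 84.3, 264 to 387 and 41.5 to 44.4 TPM in the same order of groups, with Krt8 at 0 throughout. The 6 erythroid and platelet markers summed to 10.6 to 13.1, 3.93 to 5.28 and 7.66 to 9.22 TPM, with Hbb-bs and Ppbp at 0 throughout. The part of these shifts in the results below was not tested, and in bulk RNA a smaller number of cells of a type and less RNA per cell cannot be told apart. In the OVA and OVA/Citra groups replicate 2 stood apart from its partners: the chi-square per gene between recovered reads was 14.36 and 23.8 for OVA replicate 2 against 5.42 between the other OVA libraries, and 14.02 and 11.41 for OVA/Citra replicate 2 against 4.63 between the others of its group.

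Levels were compared on log2(TPM + 1) with limma across 11971 genes, and a gene was called at a Benjamini-Hochberg adjusted p under 0.05. The pseudocount of 1 understates changes of low genes. The median change of all tested genes was a log2 of 0.12 for OVA/Citra against OVA, -0.08 for OVA against CTRL and 0.04 for OVA/Citra against CTRL, and every log2 change below is relative to that median. The calls, SE and adjusted p belong to the change on the deposited scale, before that median was taken off. They do not test the printed change, so a small printed change can carry a low adjusted p. With OVA/Citra against OVA, 11 of 37 members were higher and 16 lower, where 37.8% and 21.2% of all tested genes were called higher and lower. The members' median was -0.20. After scaling by the median of ratios 10 were higher and 20 lower, where 29.1% and 30.0% of all tested genes were. With OVA against CTRL, 16 members were higher and 16 lower, where 32.1% and 39.8% of all tested genes were called, and the members' median was 0.01. With OVA/Citra against CTRL, 12 were higher and 16 lower, where 33.1% and 26.3% of all tested genes were called, and the median was -0.13. The members thus held no common direction with the peptide, and the share called lower with citraconate (43.2% of 37) stood above that of all genes. Without OVA replicate 2 the counts were 10 higher and 14 lower for OVA/Citra against OVA and 15 and 15 for OVA against CTRL. Without OVA/Citra replicate 2 they were 11 and 14 against OVA and 12 and 15 against CTRL. The comparisons share libraries and are not independent of each other.

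**Figure D1:**
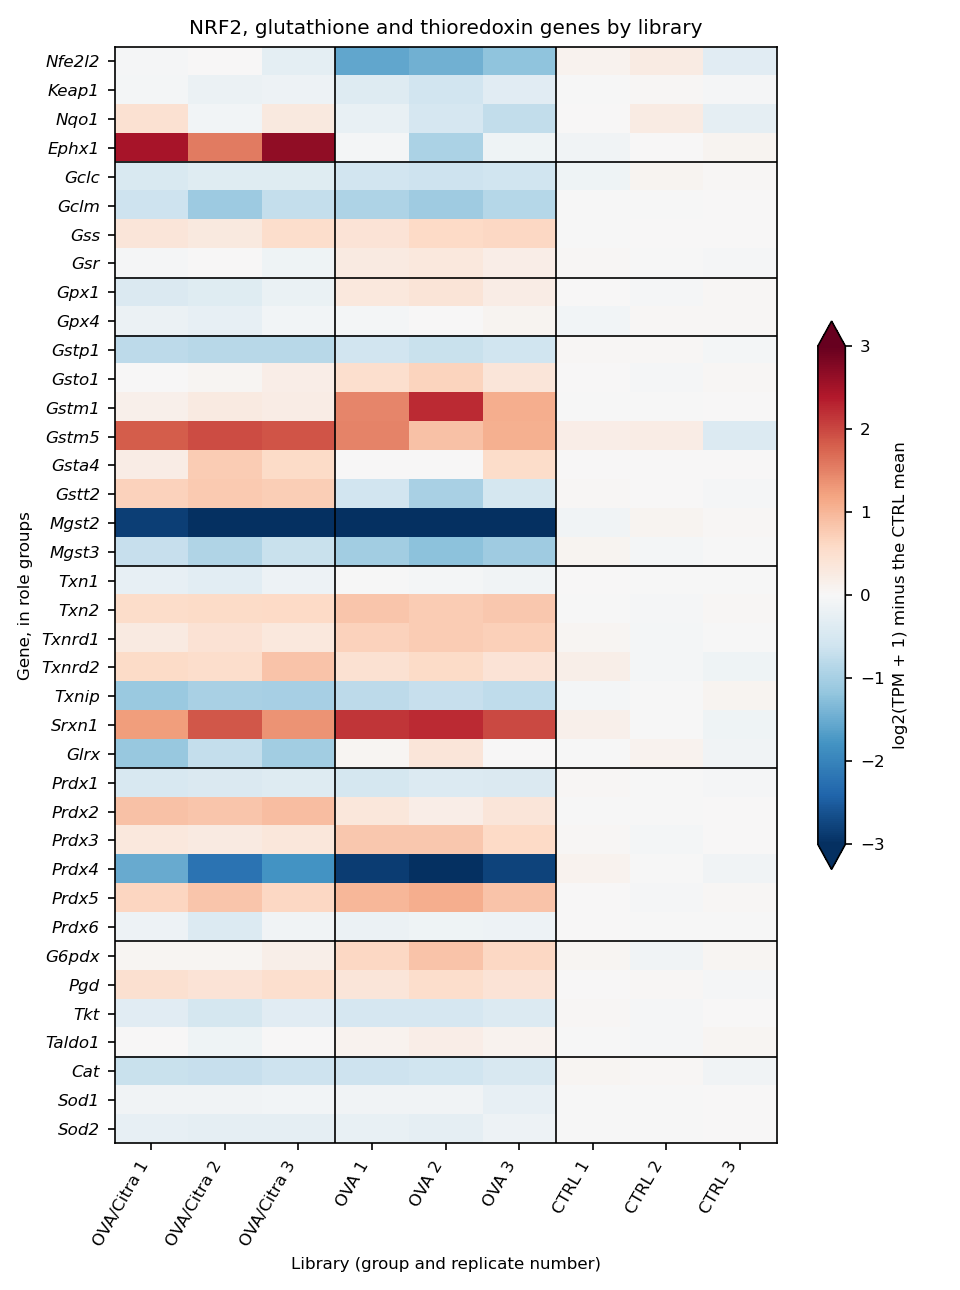
Level of each of the 38 genes (down, in role groups separated by lines) in each of the 9 libraries (across), as log2(TPM + 1) minus the CTRL mean; red is above and blue below that mean, and the colours stop at 3 and -3. Mgst2 and Prdx4 are the bluest rows of the OVA and OVA/Citra libraries, Srxn1 is red in both, and Ephx1 is red in OVA/Citra alone.

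Nfe2l2, Keap1, Nqo1 and Ephx1, the 4 genes grouped here as regulators and classical targets, were all higher in OVA/Citra than in OVA. Of the 4, 3 were lower in OVA than in CTRL. Of all tested genes, 37.8% were called higher in the first comparison and 39.8% lower in the second. These 4 genes do not stand for all NRF2 targets. Of 16 tested targets outside the 38 genes, 3 were higher and 8 lower in OVA/Citra than in OVA. Nfe2l2 had 7.46, 7.73 and 6.07 TPM in OVA/Citra, 1.94, 2.22 and 2.78 TPM in OVA and 8.38, 9.29 and 5.85 TPM in CTRL. The OVA libraries lay below all others, and those of OVA/Citra and CTRL overlapped. The log2 change was 1.17 ± 0.166 (SE; adjusted p = 0.000122) for OVA/Citra against OVA, -1.32 ± 0.166 (SE; adjusted p = 2.91e-05) for OVA against CTRL, and -0.15 ± 0.166 (SE; adjusted p = 0.576) for OVA/Citra against CTRL, which did not pass. Keap1 had 49.4, 45.5 and 45.7 TPM in OVA/Citra, 38.6, 34.3 and 40.4 TPM in OVA and 51.1, 52.1 and 50.2 TPM in CTRL. Keap1, the adaptor that hands NRF2 to a ubiquitin ligase, was thus also lowest in OVA, with 0.18 for OVA/Citra against OVA (adjusted p = 0.00309) and -0.35 for OVA against CTRL (adjusted p = 0.000223). Against CTRL the OVA/Citra libraries lay below without passing (adjusted p = 0.14), but were called lower after scaling by the median of ratios (0.0339).

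Ephx1 had 41.1, 21.01 and 46.2 TPM in OVA/Citra, 6.205, 2.88 and 5.93 TPM in OVA and 6.03, 6.61 and 6.96 TPM in CTRL. Ephx1 encodes microsomal epoxide hydrolase, which opens reactive epoxides. Every OVA/Citra library lay above every other library, and OVA and CTRL overlapped. The log2 change was 2.48 ± 0.293 (SE; adjusted p = 5.92e-05) for OVA/Citra against OVA and 2.19 ± 0.293 (SE; adjusted p = 0.000114) for OVA/Citra against CTRL, whereas OVA against CTRL did not pass (-0.30, adjusted p = 0.267). Within OVA/Citra, replicate 2 had the lowest level. Nqo1, the quinone reductase that often serves as a readout of NRF2, was close to the detection limit, with 5 to 22 reads per library. Nqo1 had 2.36, 1.302 and 1.99 TPM in OVA/Citra, 1.08, 0.704 and 0.465 TPM in OVA and 1.45, 1.89 and 1.02 TPM in CTRL. It was higher in OVA/Citra than in OVA (0.59, adjusted p = 0.0105). The lower level in OVA than in CTRL (-0.41, adjusted p = 0.0482) was lost under 12 of the 19 other settings in which the gene was tested, among them leaving out CTRL replicate 1 or 2, OVA replicate 2 or 3, or OVA/Citra replicate 3, with adjusted p up to 0.167.

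**Figure D2:**
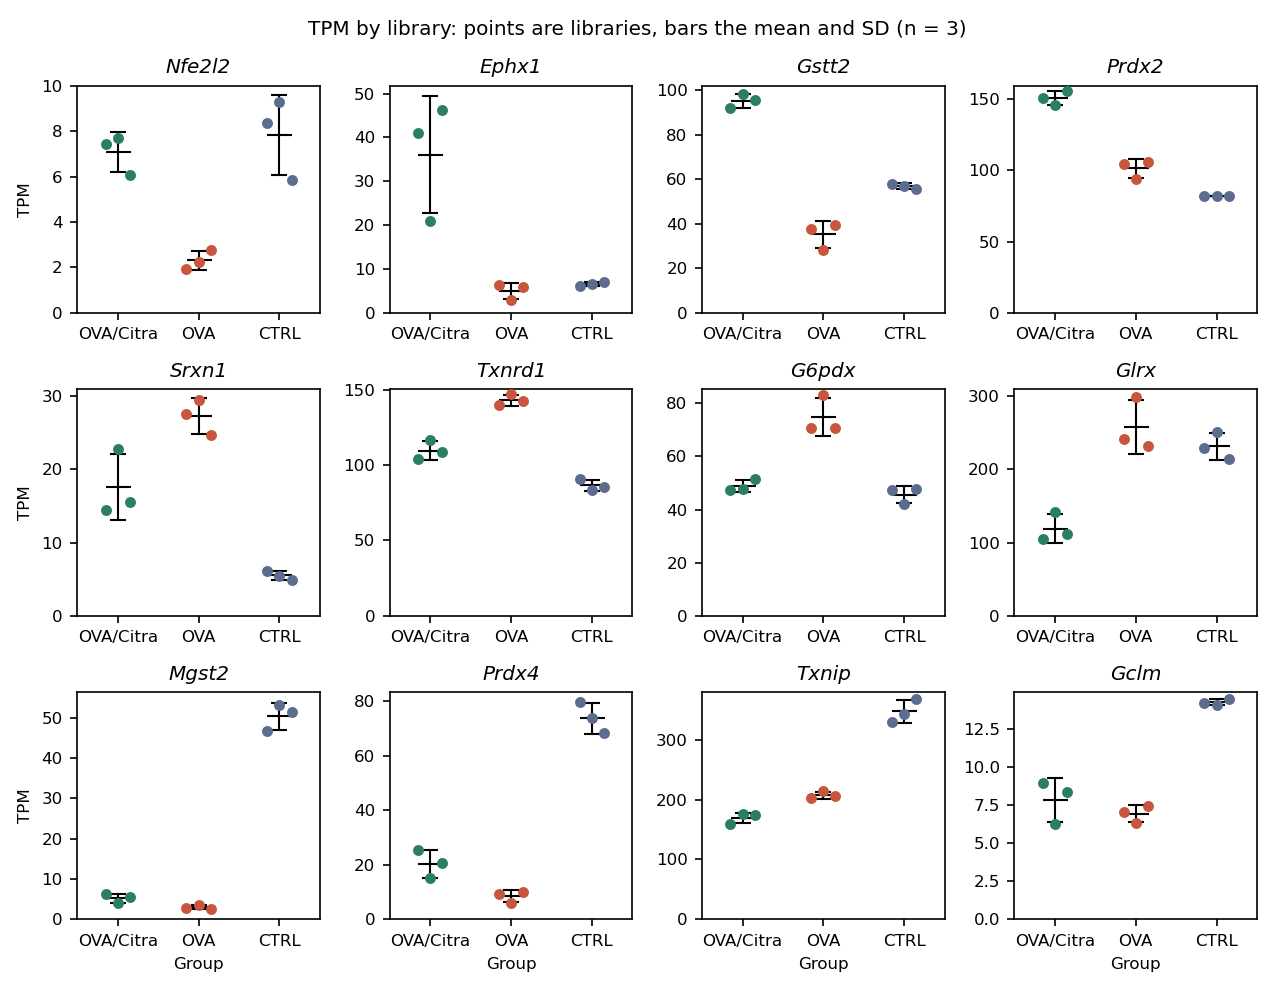
TPM (vertical axes, from 0) of 12 of the genes in each library, with OVA/Citra, OVA and CTRL from left to right; points are libraries and bars the mean and SD of 3. Ephx1, Gstt2 and Prdx2 are highest in OVA/Citra, Srxn1, Txnrd1 and G6pdx in OVA, and Mgst2, Prdx4, Txnip and Gclm in CTRL.

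Glutathione synthesis and recycling split into its parts. Both subunits of glutamate-cysteine ligase, which makes the rate-limiting step, were lower in OVA than in CTRL, whereas glutathione synthetase and glutathione reductase were higher. Gclm had 8.997, 6.24 and 8.38 TPM in OVA/Citra, 7.04, 6.35 and 7.44 TPM in OVA and 14.3, 14.1 and 14.5 TPM in CTRL. The CTRL libraries of Gclm, the modifier subunit, lay above all others. Its log2 change was -0.87 ± 0.12 (SE; adjusted p = 4.86e-05) for OVA against CTRL and -0.84 for OVA/Citra against CTRL (adjusted p = 0.00027). OVA/Citra against OVA did not pass (0.03, adjusted p = 0.309), but without OVA/Citra replicate 2 it was called higher (adjusted p = 0.0252). Gclc had 18.8, 20.2 and 20.4 TPM in OVA/Citra, 17.5, 16.8 and 17.1 TPM in OVA and 24.3, 27.9 and 27.2 TPM in CTRL. Gclc, the catalytic subunit, fell by 0.52 with OVA against CTRL (adjusted p = 3e-05) and by 0.44 with OVA/Citra against CTRL (adjusted p = 0.000804). Its higher level in OVA/Citra than in OVA was 0.07 beyond the median gene, or 0.20 before the median was taken off (adjusted p = 0.0337). It was not called after scaling by the median of ratios (0.455) nor without OVA replicate 1, 2 or 3 or OVA/Citra replicate 2 or 3 (0.0571 to 0.0995).

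Gss had 9.79, 9.29 and 11.2 TPM in OVA/Citra, 10.2, 11.9 and 12.02 TPM in OVA and 7.33, 7.48 and 7.54 TPM in CTRL. Gss, which completes glutathione, rose by 0.62 in OVA over CTRL (adjusted p = 0.000408) and by 0.35 in OVA/Citra over CTRL (adjusted p = 0.00502). Between OVA/Citra and OVA it did not pass (-0.28, adjusted p = 0.167), but was called lower after scaling by the median of ratios (0.019). Gsr had 69.7, 72.3 and 65.6 TPM in OVA/Citra, 85.8, 88.98 and 82.1 TPM in OVA and 73.7, 70.8 and 69.9 TPM in CTRL. Gsr, which returns oxidised glutathione to its reduced form with NADPH, was highest in OVA. It was lower in OVA/Citra than in OVA (-0.43, adjusted p = 0.000918) and higher in OVA than in CTRL (0.34, adjusted p = 0.00169), and OVA/Citra and CTRL overlapped. The ratio of Gclc to Gclm, both per length, was 2.09 to 3.24 in OVA/Citra, 2.29 to 2.65 in OVA and 1.70 to 1.98 in CTRL.

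The glutathione peroxidases were both lower in OVA/Citra than in OVA and than in CTRL. Gpx1 had 253, 264 and 298 TPM in OVA/Citra, 425, 442 and 398 TPM in OVA and 343, 331 and 347 TPM in CTRL. Gpx1, which reduces hydrogen peroxide, had 3 groups that did not overlap. Its log2 change was -0.76 ± 0.065 (SE; adjusted p = 3.53e-05) for OVA/Citra against OVA, 0.39 for OVA against CTRL (adjusted p = 0.00155) and -0.36 for OVA/Citra against CTRL (adjusted p = 0.00154). Gpx4 had 246, 234 and 262 TPM in OVA/Citra, 264, 277 and 289.7 TPM in OVA and 261, 282 and 284 TPM in CTRL. The changes of Gpx4, which reduces lipid peroxides in membranes and guards against ferroptosis, were small: -0.29 for OVA/Citra against OVA (adjusted p = 0.0346) and -0.20 for OVA/Citra against CTRL (adjusted p = 0.0388), with overlapping ranges in the last. Both calls of Gpx4 were lost without OVA/Citra replicate 1 or 2, the one against OVA also without OVA replicate 2 or 3 and the one against CTRL also without CTRL replicate 2 or 3 (adjusted p 0.0649 to 0.123). OVA against CTRL did not pass for Gpx4 (adjusted p = 0.944).

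Glutathione transferases, which join glutathione to electrophiles, went both ways. With OVA against CTRL 3 of 7 tested were higher and 4 lower, where 32.1% and 39.8% of all tested genes were. With OVA/Citra against OVA 4 were higher and 3 lower, where 37.8% and 21.2% of all tested genes were. Gstt2 had 92.1, 98.3 and 95.4 TPM in OVA/Citra, 37.8, 28.4 and 39.2 TPM in OVA and 58.02, 56.9 and 55.5 TPM in CTRL. Gstt2, of the theta class, was lowest in OVA and highest in OVA/Citra, and no groups overlapped. Its log2 change was 1.303 ± 0.103 (SE; adjusted p = 7.73e-06) for OVA/Citra against OVA, -0.61 ± 0.103 (SE; adjusted p = 0.000149) for OVA against CTRL and 0.70 ± 0.103 (SE; adjusted p = 0.000165) for OVA/Citra against CTRL. Mgst2 had 6.204, 4.01 and 5.43 TPM in OVA/Citra, 2.81, 3.41 and 2.498 TPM in OVA and 46.6, 53.1 and 51.4 TPM in CTRL. Mgst2, a microsomal transferase that can also form leukotriene C4, was far below CTRL in both peptide groups. The change was -3.64 ± 0.14 (SE; adjusted p = 1.9e-08) for OVA against CTRL and -3.099 ± 0.14 (SE; adjusted p = 9.92e-08) for OVA/Citra against CTRL, and OVA/Citra stood slightly above OVA (0.54, adjusted p = 0.00244). Mgst3 had 20.8, 17.8 and 21.1 TPM in OVA/Citra, 16.1, 14.1 and 15.8 TPM in OVA and 36.1, 32.9 and 33.9 TPM in CTRL. Mgst3, its relative, had the same order of groups with smaller steps: -1.04 for OVA against CTRL (adjusted p = 1.23e-06) and 0.23 for OVA/Citra against OVA (adjusted p = 0.0043).

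The 2 mu class members went different ways with citraconate. Gstm1 had 5.09, 5.61 and 5.35 TPM in OVA/Citra, 14.1, 24.9 and 10.6 TPM in OVA and 4.46, 4.43 and 4.51 TPM in CTRL. Gstm1 was highest in OVA, above all other libraries, with OVA replicate 2 the highest of its group. Its change was -1.51 ± 0.229 (SE; adjusted p = 0.000557) for OVA/Citra against OVA and 1.68 ± 0.229 (SE; adjusted p = 0.000118) for OVA against CTRL, and OVA/Citra against CTRL did not pass (adjusted p = 0.443). Gstm5 had 5.86, 6.59 and 6.17 TPM in OVA/Citra, 4.43, 2.56 and 3.05 TPM in OVA and 1.22, 1.28 and 0.452 TPM in CTRL. Gstm5 was highest in OVA/Citra, at low levels (4 to 51 reads per library), with 0.63 against OVA (adjusted p = 0.00865) and 1.85 against CTRL (adjusted p = 2.54e-05). OVA lay above CTRL by 1.22 (adjusted p = 0.00048). Gstp1 had 210.0, 202 and 204 TPM in OVA/Citra, 244, 226 and 239.8 TPM in OVA and 370.0, 370.4 and 346 TPM in CTRL. Gstp1, of the pi class and the most abundant of the 8 per length, was lower in each step, with -0.33 for OVA/Citra against OVA (adjusted p = 0.00458) and -0.54 for OVA against CTRL (adjusted p = 1.64e-06). Gsto1 had 43.1, 44.4 and 49.2 TPM in OVA/Citra, 61.2, 68.5 and 55.1 TPM in OVA and 43.1, 41.8 and 43.6 TPM in CTRL. Gsto1, of the omega class, was highest in OVA (-0.55 for OVA/Citra against OVA, adjusted p = 0.00133; 0.59 for OVA against CTRL, adjusted p = 0.000242), and OVA/Citra overlapped CTRL. Gsta4, which acts on aldehydes from lipid peroxidation, had 1, 4 and 3 reads in OVA/Citra, 0, 0 and 3 in OVA and 0 in each CTRL library, too few for a comparison. The mu, pi and theta classes hold near-identical neighbours, and several members have processed pseudogenes, among them Txn1, Prdx1, Gpx4 and Sod1. How reads were divided between such copies is not stated in the labels, and these levels are uncertain to that extent.

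The thioredoxin system was listed together with its inhibitor Txnip and with glutaredoxin (Glrx). Of these 7 genes 6 were lower and none higher in OVA/Citra than in OVA, where 21.2% and 37.8% of all tested genes were. In OVA against CTRL 4 were higher and 1 lower, where 32.1% and 39.8% of all tested genes were. Srxn1 had 14.5, 22.8 and 15.5 TPM in OVA/Citra, 27.6, 29.6 and 24.7 TPM in OVA and 6.19, 5.44 and 4.96 TPM in CTRL. Srxn1, sulfiredoxin, which repairs overoxidised peroxiredoxins, had 3 groups that did not overlap. Its change was -0.75 ± 0.153 (SE; adjusted p = 0.00525) for OVA/Citra against OVA, 2.19 ± 0.153 (SE; adjusted p = 9.66e-07) for OVA against CTRL and 1.45 ± 0.153 (SE; adjusted p = 2.06e-05) for OVA/Citra against CTRL. Txnrd1 had 104, 116 and 109 TPM in OVA/Citra, 139.5, 147 and 142 TPM in OVA and 90.5, 83.2 and 85.8 TPM in CTRL. Txnrd1, the cytosolic reductase that hands electrons from NADPH to thioredoxin, had the same order: -0.50 (adjusted p = 0.000268) for OVA/Citra against OVA and 0.80 (adjusted p = 1.56e-06) for OVA against CTRL. Txn2 had 73.9, 75.5 and 76.6 TPM in OVA/Citra, 89.4, 85.1 and 87.9 TPM in OVA and 49.6, 49.2 and 51.6 TPM in CTRL. Txn2, the mitochondrial thioredoxin, followed it, with -0.34 (adjusted p = 0.00296) and 0.87 (adjusted p = 2.63e-07) in the same comparisons. Txnrd2 had 10.8, 10.2 and 13.2 TPM in OVA/Citra, 9.71, 10.7 and 9.36 TPM in OVA and 7.93, 6.56 and 6.16 TPM in CTRL. Txnrd2, the mitochondrial reductase, was higher in OVA than in CTRL (0.55, adjusted p = 0.00437), and OVA/Citra against OVA did not pass (adjusted p = 0.216).

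Txn1 had 590.0, 558 and 622 TPM in OVA/Citra, 686, 662 and 644 TPM in OVA and 706, 695 and 685 TPM in CTRL. Txn1, the cytosolic thioredoxin and one of the most abundant members per length, was called lower in OVA/Citra against OVA (-0.30, adjusted p = 0.0135; 0.0549 without OVA replicate 1) and against CTRL (-0.28, adjusted p = 0.00223), and not in OVA against CTRL (adjusted p = 0.254). Txnip had 159, 175 and 174 TPM in OVA/Citra, 202, 214 and 205 TPM in OVA and 331, 343 and 369 TPM in CTRL. Txnip, which binds and inhibits thioredoxin and limits glucose uptake, was lower in each step. Its change was -0.41 ± 0.057 (SE; adjusted p = 0.00159) for OVA/Citra against OVA, -0.67 ± 0.057 (SE; adjusted p = 1.38e-06) for OVA against CTRL and -1.07 ± 0.057 (SE; adjusted p = 3.42e-07) for OVA/Citra against CTRL. The ratio of Txnip to Txn1 was 0.270 to 0.314 in OVA/Citra and 0.294 to 0.323 in OVA, ranges that overlapped, and 0.468 to 0.538 in CTRL. Glrx had 105, 141 and 111 TPM in OVA/Citra, 242, 299 and 232 TPM in OVA and 229, 250.3 and 214 TPM in CTRL. Glrx, glutaredoxin, which removes glutathione from proteins, did not pass in OVA against CTRL (0.23, adjusted p = 0.298). In OVA/Citra it lay below every other library, with -1.23 ± 0.123 (SE; adjusted p = 5.39e-05) against OVA and -1.001 ± 0.123 (SE; adjusted p = 9.18e-05) against CTRL.

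Peroxiredoxins, the thiol peroxidases that thioredoxin reduces, did not move as a group. With OVA against CTRL 3 of 6 were higher and 2 lower, where 32.1% and 39.8% of all tested genes were. With OVA/Citra against OVA 2 were higher and 2 lower, where 37.8% and 21.2% of all tested genes were. Prdx4 had 25.3, 15.05 and 20.6 TPM in OVA/Citra, 9.38, 6.003 and 9.95 TPM in OVA and 79.5, 73.6 and 68.2 TPM in CTRL. Prdx4, of the endoplasmic reticulum, was the member with the largest change of the 6 in OVA against CTRL. The change was 1.05 ± 0.195 (SE; adjusted p = 0.000576) for OVA/Citra against OVA, -2.93 ± 0.195 (SE; adjusted p = 4.88e-07) for OVA against CTRL and -1.88 ± 0.195 (SE; adjusted p = 2.63e-05) for OVA/Citra against CTRL. Prdx2 had 151, 146 and 156 TPM in OVA/Citra, 105, 93.8 and 106 TPM in OVA and 81.8, 81.9 and 82.04 TPM in CTRL. Prdx2, a cytosolic enzyme abundant in red cells, was higher in each step, by 0.44 for OVA/Citra against OVA (adjusted p = 2.84e-05) and 0.38 for OVA against CTRL (adjusted p = 0.00062). Of the red cell genes counted above, Hbb-bt had 10.7, 12.5 and 10.6 TPM in OVA/Citra, 3.05, 3.33 and 3.50 TPM in OVA and 5.65, 5.80 and 6.77 TPM in CTRL. The other globin genes did not share that order: Hba-a1 reached at most 0.208 TPM in OVA/Citra, 1.73 TPM in OVA and 3.42 TPM in CTRL, Hba-a2 was at 0 in every OVA/Citra library, and Hbb-bs was at 0 throughout. Their part in the level of Prdx2 was not tested. Prdx1 had 124, 128 and 133 TPM in OVA/Citra, 121, 129.6 and 128 TPM in OVA and 178, 174 and 170.3 TPM in CTRL. Prdx1, also cytosolic, went the other way, with -0.38 for OVA against CTRL (adjusted p = 1.17e-05), and OVA/Citra against OVA did not pass (adjusted p = 0.659). The ratio of Prdx2 to Prdx1 was 1.14 to 1.21 in OVA/Citra, 0.724 to 0.863 in OVA and 0.461 to 0.482 in CTRL.

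Prdx3 had 88.9, 86.3 and 90.1 TPM in OVA/Citra, 126, 126 and 108 TPM in OVA and 72.4, 68.5 and 72.1 TPM in CTRL. Prdx3, of mitochondria, and Prdx5, of mitochondria and peroxisomes, were both highest in OVA. For Prdx3 the change was -0.56 for OVA/Citra against OVA (adjusted p = 0.000264) and 0.82 for OVA against CTRL (adjusted p = 2.88e-06). Prdx5 had 224, 253 and 220.0 TPM in OVA/Citra, 285, 303 and 256 TPM in OVA and 143, 138 and 145 TPM in CTRL. For Prdx5 it was -0.40 (adjusted p = 0.00779) and 1.05 (adjusted p = 1.07e-06) in the same comparisons. The OVA/Citra libraries of both genes lay between the other groups, apart from each. Prdx6 had 70.1, 59.05 and 72.4 TPM in OVA/Citra, 69.7, 71.4 and 69.9 TPM in OVA and 79.5, 77.6 and 77.9 TPM in CTRL. Prdx6, which works with glutathione, was called only in OVA/Citra against CTRL (-0.26, adjusted p = 0.0199). That call was lost without CTRL replicate 1 (0.0571), and without OVA/Citra replicate 2 the log2 change before the median was taken off was -0.14, against -0.22 with all libraries. OVA against CTRL (adjusted p = 0.0758) was called lower without OVA/Citra replicate 2 (0.0112), and OVA/Citra against OVA after scaling by the median of ratios (0.0232).

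The pentose phosphate pathway supplies NADPH to both systems, and its 2 oxidative enzymes were higher in OVA than in CTRL. G6pdx had 47.2, 47.9 and 51.4 TPM in OVA/Citra, 70.9, 83.3 and 70.6 TPM in OVA and 47.2, 42.1 and 47.6 TPM in CTRL. G6pdx, the enzyme that commits glucose to the pathway, was highest in OVA, and OVA/Citra overlapped CTRL. Its change was -0.73 ± 0.078 (SE; adjusted p = 0.000126) for OVA/Citra against OVA and 0.78 ± 0.078 (SE; adjusted p = 1.91e-05) for OVA against CTRL. Pgd had 78.9, 75.8 and 80.6 TPM in OVA/Citra, 73.6, 82.4 and 75.4 TPM in OVA and 57.3, 57.8 and 54.99 TPM in CTRL. Pgd, the next NADPH-forming enzyme, rose by 0.51 in OVA over CTRL (adjusted p = 5.32e-05), and OVA/Citra against OVA did not pass (adjusted p = 0.726). Tkt had 272, 238 and 272 TPM in OVA/Citra, 245, 243 and 259.7 TPM in OVA and 352, 335 and 350.0 TPM in CTRL. Tkt, transketolase of the non-oxidative branch, fell by 0.39 in OVA relative to CTRL (adjusted p = 4.53e-05) and by 0.45 in OVA/Citra relative to CTRL (adjusted p = 0.000203). Taldo1 had 158, 144 and 158 TPM in OVA/Citra, 168, 179 and 170.4 TPM in OVA and 156, 152 and 163 TPM in CTRL. The changes of Taldo1, transaldolase, were small: -0.29 for OVA/Citra against OVA (adjusted p = 0.0197, lost without OVA replicate 2 or OVA/Citra replicate 2) and 0.21 for OVA against CTRL (adjusted p = 0.0421). The last was lost under 8 of 20 settings, among them leaving out CTRL replicate 1 or 2, any OVA replicate or OVA/Citra replicate 3 (0.0513 to 0.136).

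Cat had 73.1, 71.1 and 74.98 TPM in OVA/Citra, 75.5, 76.8 and 82.8 TPM in OVA and 121, 119.7 and 109 TPM in CTRL. Catalase, which splits hydrogen peroxide in peroxisomes, was lower in OVA than in CTRL (-0.49, adjusted p = 1.1e-05) and in OVA/Citra than in CTRL (-0.70, adjusted p = 6.99e-06). Between OVA/Citra and OVA it did not pass (adjusted p = 0.167), but was called lower after scaling by the median of ratios (0.00152). Sod2 had 42.5, 41.97 and 42.3 TPM in OVA/Citra, 43.9, 41.96 and 45.7 TPM in OVA and 50.2, 50.9 and 51.7 TPM in CTRL. Sod2, the mitochondrial superoxide dismutase, was lower in OVA than in CTRL (-0.14, adjusted p = 0.0034; 0.0822 with the granzymes left out of the scale) and in OVA/Citra than in CTRL (-0.30, adjusted p = 0.00131). For Sod2, OVA/Citra against OVA did not pass (-0.175, adjusted p = 0.407), but was called lower after scaling by the median of ratios (0.00876). Sod1 had 1211, 1203 and 1226 TPM in OVA/Citra, 1206, 1199 and 1095 TPM in OVA and 1289, 1279 and 1315 TPM in CTRL. Sod1, the cytosolic dismutase, had the highest TPM of all 38 genes. Its log2 change for OVA against CTRL was -0.07, or -0.15 before the median was taken off (adjusted p = 0.0165). That call was lost after scaling by the median of ratios (0.39) and without CTRL replicate 3 or OVA replicate 3 (0.0563 and 0.0686). Granzyme transcripts took 3.80% of all TPM in OVA/Citra, 8.53% in OVA and 0.995% in CTRL. Leaving them out moved the median of all genes to 0.06, 0.02 and 0.08 for OVA/Citra against OVA, OVA against CTRL and OVA/Citra against CTRL.

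**Figure D3:**
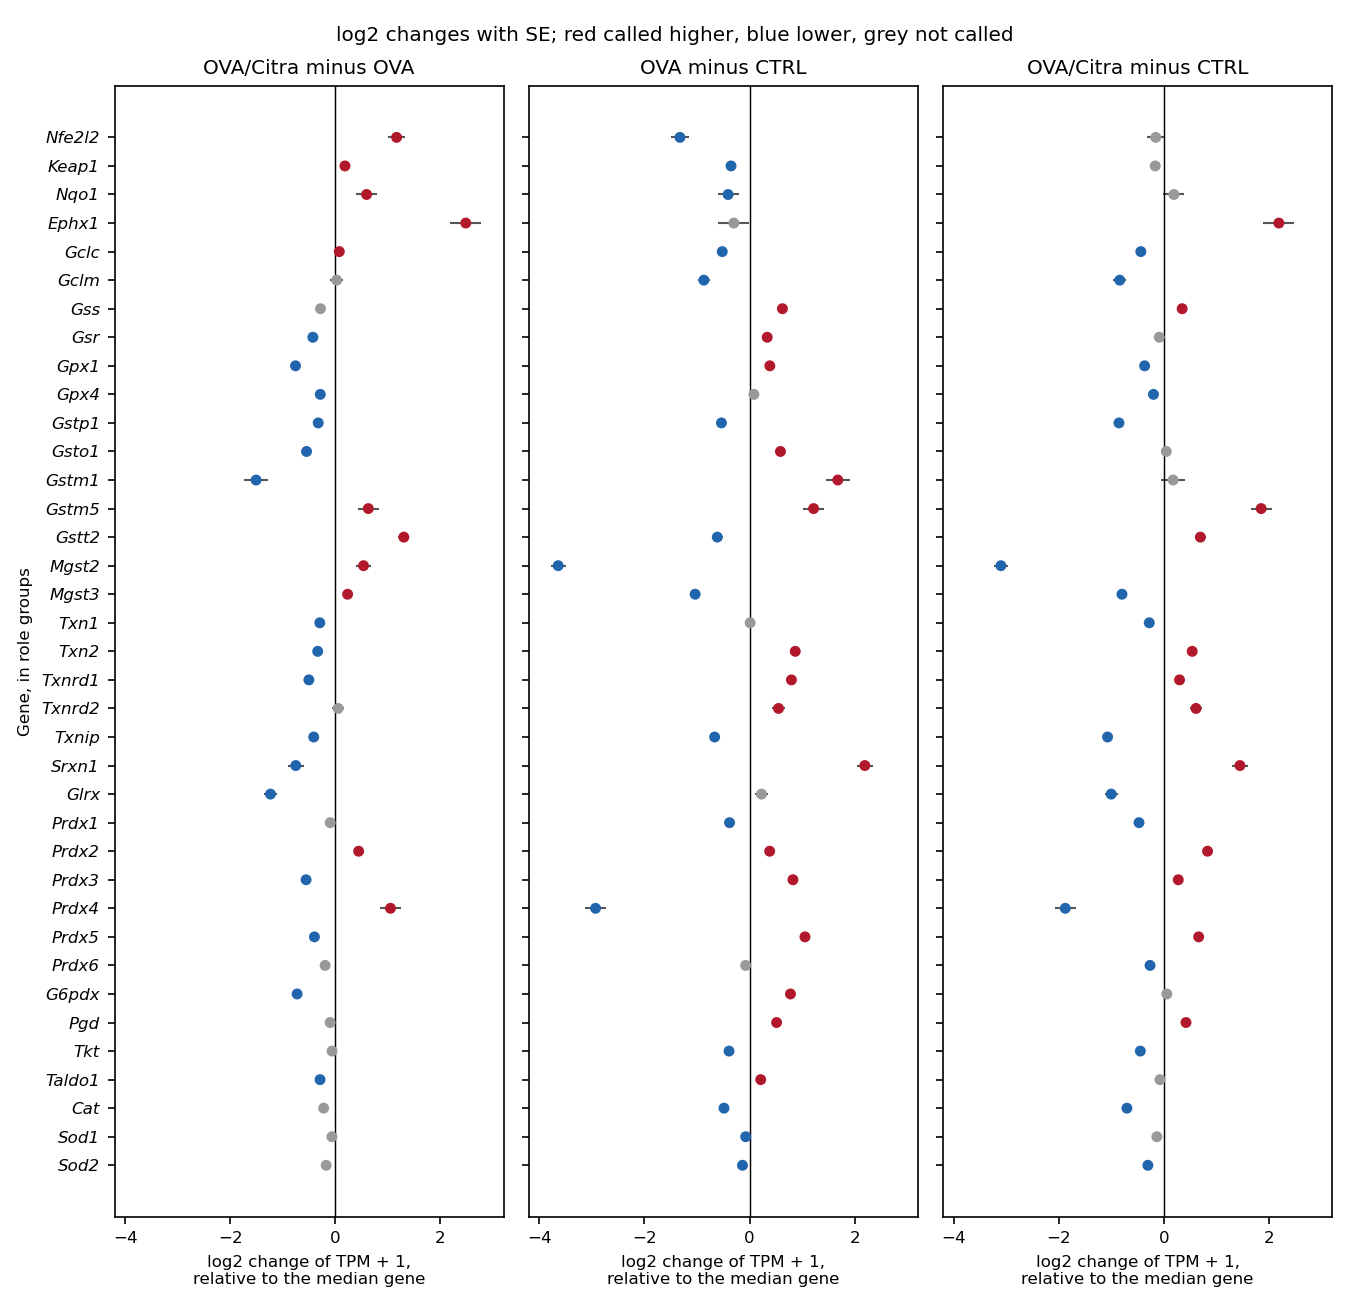
log2 change of TPM + 1 relative to the median gene (across) for 37 tested genes (down, in role groups), in OVA/Citra against OVA, OVA against CTRL and OVA/Citra against CTRL; bars are SE from limma, red points were called higher, blue lower and grey not called. The calls test the change before the median was taken off. Mgst2 and Prdx4 lie farthest left in both comparisons with CTRL, Srxn1 farthest right in OVA against CTRL, and Ephx1 farthest right in both comparisons of OVA/Citra.

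Read by where the OVA/Citra level lay, with a call needed on each side, 9 genes stood between OVA and CTRL and apart from both (Gclc, Mgst2, Mgst3, Txn2, Txnrd1, Srxn1, Prdx3, Prdx4 and Prdx5). A further 8 differed from OVA and not from CTRL (Nfe2l2, Keap1, Nqo1, Gsr, Gsto1, Gstm1, G6pdx and Taldo1), and 9 differed from CTRL and not from OVA (Gclm, Gss, Txnrd2, Prdx1, Prdx6, Pgd, Tkt, Cat and Sod2). Outside the range of the other groups, 4 genes were above both (Ephx1, Gstm5, Gstt2 and Prdx2) and 6 below both (Gpx1, Gpx4, Gstp1, Txn1, Txnip and Glrx). For Sod1 neither comparison of OVA/Citra passed, and Gsta4 was not tested. A difference that did not pass is not shown to be absent. The places of Gclc, Gpx4, Txn1, Taldo1 and Prdx6 rest on calls that were lost under some other settings. Those of Gclm, Gss, Prdx6, Cat, Sod2 and Keap1 rest on a difference that did not pass but was called under some other setting. Under such a setting these genes would take another place. The share of all tested genes in each position was not computed, so these counts do not set the members apart from other genes. The summed level of all 38 genes was 4669 to 4870 TPM in OVA/Citra, 5046 to 5333 TPM in OVA and 5448 to 5477 TPM in CTRL. On this deposited scale the groups did not overlap, but granzymes took 3.80%, 8.53% and 0.995% of it in the same order. Sums with the granzymes left out were not taken, so the order of the groups holds for the deposited scale alone.

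Other genes of the same pathways came from a list of 71, of which 69 were in the table and 62 were tested. With OVA/Citra against OVA 15 were higher and 26 lower, where 37.8% and 21.2% of all tested genes were called. After scaling by the median of ratios these counts were 13 and 33, where 29.1% and 30.0% of all tested genes were called. With OVA against CTRL 34 were higher and 21 lower, where 32.1% and 39.8% of all tested genes were called. With OVA/Citra against CTRL 25 were higher and 13 lower, where 33.1% and 26.3% of all tested genes were called. The medians were -0.20, 0.31 and 0.04, where the median of all genes is 0. Of 16 tested NRF2 targets outside the 38 genes, 3 were higher and 8 lower with OVA/Citra against OVA, and 11 were higher and 5 lower with OVA against CTRL. Hmox1 had 22.7, 31.5 and 21.99 TPM in OVA/Citra, 101, 134 and 92.3 TPM in OVA and 14.1, 13.6 and 17.1 TPM in CTRL. Hmox1, haem oxygenase, which breaks down haem, had a change of -2.19 ± 0.162 (SE; adjusted p = 1.02e-05) for OVA/Citra against OVA and 2.86 ± 0.162 (SE; adjusted p = 2.51e-07) for OVA against CTRL. The OVA libraries lay above all others, and those of OVA/Citra stayed above CTRL (0.68, adjusted p = 0.00343). Ftl1 had 1627, 2159.8 and 1570.3 TPM in OVA/Citra, 6460.4, 8110.1 and 5609 TPM in OVA and 1201, 1154 and 1154 TPM in CTRL. Ftl1, the ferritin light chain, which stores iron, had the same order of groups, with -2.04 for OVA/Citra against OVA (adjusted p = 8.38e-06) and 2.58 for OVA against CTRL (adjusted p = 2.12e-07). It has many pseudogenes. Sqstm1 had 199, 259 and 207 TPM in OVA/Citra, 559, 707 and 539 TPM in OVA and 143, 146 and 149 TPM in CTRL. Sqstm1, the autophagy receptor p62, which can bind KEAP1, had it as well, with -1.56 for OVA/Citra against OVA (adjusted p = 1.05e-05) and 2.101 for OVA against CTRL (adjusted p = 2.11e-07). Osgin1 had 5.603, 4.85 and 2.602 TPM in OVA/Citra, 17.5, 18.4 and 14.5 TPM in OVA and 5.88, 5.13 and 3.08 TPM in CTRL. Osgin1, a growth inhibitor induced by oxidative stress, fell by 1.897 in OVA/Citra relative to OVA (adjusted p = 0.000179), and OVA/Citra overlapped CTRL. These 4 targets, named for the size of their changes, were highest in the OVA libraries, where Nfe2l2 was lowest. The 5 targets called lower in OVA than in CTRL were Cbr1, Blvrb, Ugdh, Akr1a1 and Idh1, the direction of Nfe2l2 in that comparison.

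**Figure D4:**
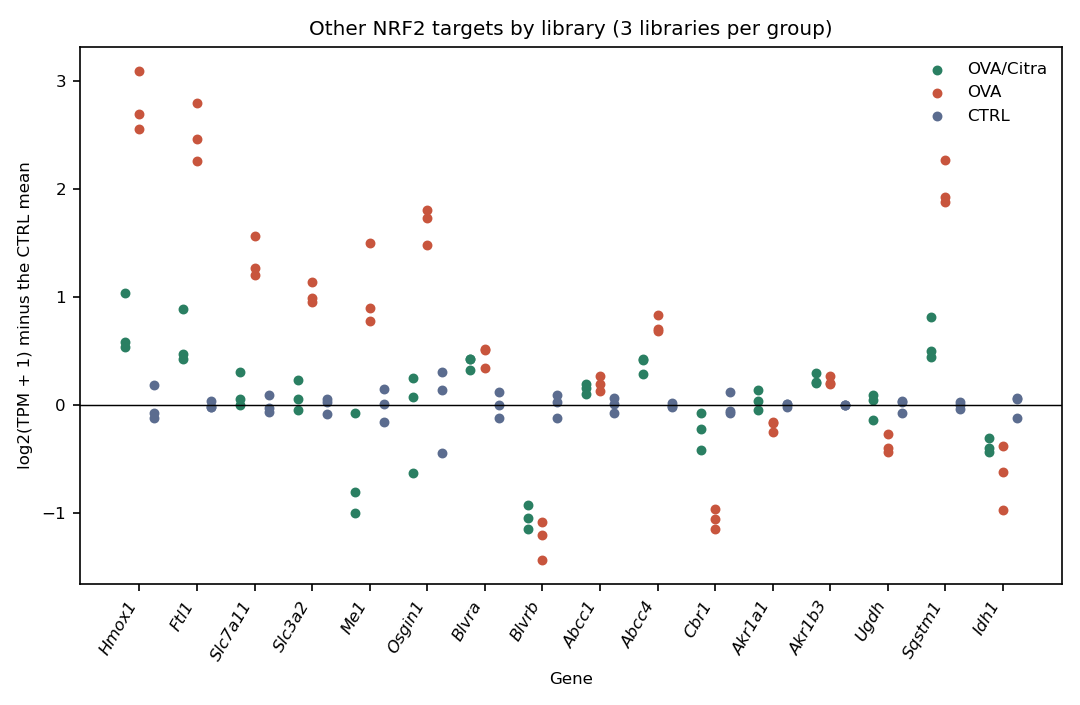
log2(TPM + 1) minus the CTRL mean (vertical axis) of the 16 tested NRF2 targets outside the 38 genes, with 1 point per library in OVA/Citra, OVA and CTRL. Hmox1, Ftl1, Sqstm1 and Osgin1 are highest in OVA, while Cbr1 and Blvrb are below CTRL there.

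Among the other glutathione genes, Gpx8 and Ggt1 had the largest changes. Gpx8 had 7.54, 15.9 and 7.46 TPM in OVA/Citra, 83.7, 119 and 60.7 TPM in OVA and 1.87, 3.53 and 2.98 TPM in CTRL. Gpx8, a peroxidase of the endoplasmic reticulum, changed by -3.13 ± 0.307 (SE; adjusted p = 3.61e-05) for OVA/Citra against OVA and 4.600 ± 0.307 (SE; adjusted p = 6.44e-07) for OVA against CTRL, in the opposite direction to Prdx4, which acts in the same compartment. Gpx8 was also higher in OVA/Citra than in CTRL (1.48, adjusted p = 0.00176). Ggt1 had 0.683, 0.445 and 0.816 TPM in OVA/Citra, 0.494, 0.686 and 0.424 TPM in OVA and 27.4, 31.7 and 27.6 TPM in CTRL. Ggt1, which cleaves glutathione outside the cell, was high in CTRL alone, with -4.21 ± 0.126 (SE; adjusted p = 4.6e-09) for OVA against CTRL and -4.22 ± 0.126 (SE; adjusted p = 8.09e-09) for OVA/Citra against CTRL. Ggt7 had 12.04, 9.66 and 11.7 TPM in OVA/Citra, 3.05, 1.43 and 4.61 TPM in OVA and 9.32, 7.65 and 8.400 TPM in CTRL. Ggt7, a relative of Ggt1, was lowest in OVA, with 1.54 for OVA/Citra against OVA (adjusted p = 0.000279) and -1.23 for OVA against CTRL (adjusted p = 0.000763). The theta class transferases Gstt1 and Gstt3 were highest in OVA/Citra, as Gstt2 was. Gstt1 had 76.8, 87.6 and 79.4 TPM in OVA/Citra, 34.3, 18.5 and 37.7 TPM in OVA and 12.7, 10.9 and 11.6 TPM in CTRL. The change of Gstt1 was 1.34 for OVA/Citra against OVA (adjusted p = 0.00023) and 2.65 for OVA/Citra against CTRL (adjusted p = 3.03e-06), and that of Gstt3 was 1.61 and 1.52 (adjusted p = 0.000159 and 0.000269). Idh2, which makes NADPH in mitochondria, averaged 18.8 ± 3.21 TPM in OVA/Citra, 13.1 ± 0.922 TPM in OVA and 42.3 ± 2.900 TPM in CTRL (SD, n = 3), with -1.55 for OVA against CTRL (adjusted p = 9.14e-07). Gstk1, a mitochondrial and peroxisomal transferase, averaged 4.300 ± 0.874 TPM in OVA/Citra, 3.13 ± 0.901 TPM in OVA and 9.22 ± 0.684 TPM in CTRL (SD, n = 3), with -1.25 for OVA against CTRL (adjusted p = 5.3e-05), and Blvrb, biliverdin reductase B, averaged 5.096 ± 0.465 TPM in OVA/Citra, 4.33 ± 0.639 TPM in OVA and 11.5 ± 0.937 TPM in CTRL (SD, n = 3), with -1.08 for OVA/Citra against CTRL (adjusted p = 3.51e-05).

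Of 8 genes that control NRF2 or share its sites, 2 were higher and 4 lower with OVA/Citra against OVA, and 4 were higher and 3 lower with OVA against CTRL. The shares of all tested genes called higher and lower were 37.8% and 21.2% in the first comparison and 32.1% and 39.8% in the second. Bach2 had 27.2, 21.8 and 25.3 TPM in OVA/Citra, 5.73, 3.16 and 8.81 TPM in OVA and 10.5, 9.54 and 9.39 TPM in CTRL. Bach2, a repressor that binds related elements with small MAF proteins and is known in T cells for restraining effector genes, had a change of 1.86 ± 0.245 (SE; adjusted p = 9.82e-05) for OVA/Citra against OVA, -0.65 ± 0.245 (SE; adjusted p = 0.0207) for OVA against CTRL and 1.21 ± 0.245 (SE; adjusted p = 0.00148) for OVA/Citra against CTRL. Every OVA/Citra library lay above every CTRL library, and those above every OVA library.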

How the data were processed

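RNA was taken from CD8+ T cells of 3 groups with 3 libraries each and sequenced on an Illumina NextSeq instrument, per the labels' protocols. These name PAS-T cells, without defining the term, for every library but OVA/Citra replicate 1, whose protocol names OVA-stimulated T cells. Trim Galore 0.5.0, Salmon and the mouse build GRCm39 are named in the submitters' processing notes. No source used here gives the annotation or says if the libraries kept strand, so antisense and overlapping genes cannot be told apart. The authors deposited 1 value per gene and library, taken as TPM since each column sums to 1000000, although the table is named for another unit. Whole read counts were recovered from the deposited TPM for all 16734 genes above 0 in at least 2 libraries (100%, within 0.0001 reads or 3e-08 of the count) and served for depth and for 1 alternative.

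Values were changed to log2(TPM + 1), and 11971 genes whose mean reached 1 TPM in 1 group or more were fitted over all 9 libraries with limma 3.58.1 in R 4.3.3 (lmFit, eBayes with trend). P-values are two-sided and adjusted by Benjamini-Hochberg over all tested genes of a comparison, with calls under 0.05. The steps were tested on simulated data. All 38 members are reported. Of the other pathway genes the text names, per comparison, the 4 highest and the 4 lowest changes among those called, with ranges apart and at least 5 TPM in the higher group. Gpx7, Cbr1, Ugdh, Akr1a1 and Idh1 are named outside this rule. The members, lists and tests were chosen with earlier results of these data known. The ratios between members, and which promoters to print, were chosen after seeing the values. The comparisons were repeated under 20 other settings. A marker of the B cell list, and the list's sum, are not reported here.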

Additional observations from a re-analysis of the deposited data

How the results depend on the processing

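Of 111 results (37 genes in 3 comparisons), 87 were called, and 10 of these were lost under at least 1 other setting. The rest kept their call, 76 under all 20 other settings and Nqo1 in OVA/Citra against OVA under the 19 in which it was tested. A further 7 results were called under some setting. No called result changed direction, and 11 results that were not called changed sign under at least 1 setting. Over all settings the members called higher and lower were 10 to 11 and 14 to 20 for OVA/Citra against OVA, 15 to 16 and 13 to 17 for OVA against CTRL, and 12 to 13 and 15 to 17 for OVA/Citra against CTRL. For the other pathway genes the counts were 13 to 16 and 23 to 33, 32 to 36 and 17 to 21, and 22 to 26 and 10 to 16 in the same comparisons. The results lost were those of Nqo1, Taldo1, Sod1 and Sod2 in OVA against CTRL, of Gclc, Gpx4, Txn1 and Taldo1 in OVA/Citra against OVA, and of Gpx4 and Prdx6 in OVA/Citra against CTRL. The cause was not tested.

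Leaving out 1 library at a time gave 10 to 11 higher and 14 to 16 lower, 15 to 16 and 14 to 17, and 12 and 15 to 16 members in the 3 comparisons. Whether the replicate numbers of the titles pair the libraries cannot be told from 3 libraries per group. Deviations of same-numbered libraries correlated at -0.012 to 0.081 between OVA and CTRL. They correlated at 0.048 to 0.304 between OVA/Citra and OVA, and at 0.025 to 0.103 between OVA/Citra and CTRL. Those of differently numbered libraries correlated at -0.07 to 0.062, -0.254 to 0.168 and -0.068 to 0.037 in the same order. With the replicate number as a block, 11 members were higher and 16 lower for OVA/Citra against OVA, 15 and 16 for OVA against CTRL, and 12 and 16 for OVA/Citra against CTRL. Among other pathway genes the block gave 16 and 26, 35 and 21, and 26 and 14. It ended 1 call, that of Taldo1 in OVA against CTRL (adjusted p = 0.057). At 5 to 22 reads per library, Nqo1 is limited by depth, as is Gsta4 with at most 4.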

Other observations

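Gstt2 lies in a run of genes on chromosome 10 that RefSeq (GRCm38.p6) orders as Cabin1, Ddt, Gstt3, Gstt1, Gstt4, Gstt2, Mif, Derl3 and Smarcb1. The run was looked at after the values of Gstt2 were seen, and the log2 changes of this paragraph are as fitted, without the median taken off. Ddt, D-dopachrome tautomerase, had 256, 272 and 275 TPM in OVA/Citra, 143, 131 and 155 TPM in OVA and 124, 95.6 and 122 TPM in CTRL. Its log2 change was 0.90 ± 0.097 (SE; adjusted p = 4.81e-05 from limma) for OVA/Citra against OVA and 0.33 (adjusted p = 0.0111) for OVA against CTRL. Gstt3, Gstt1, Gstt2 and Ddt were thus all highest in OVA/Citra, with no overlap with the other groups. Mif, a cytokine gene related to Ddt, had 2498, 2111 and 2400 TPM in OVA/Citra, 1851, 1759 and 1958 TPM in OVA and 3049, 2720 and 2871 TPM in CTRL, and was highest in CTRL. Cabin1 and Smarcb1, at the ends of the run, were higher in OVA/Citra than in OVA by 0.30 and 0.40 (adjusted p = 0.00805 and 0.00227). Smarcb1 too was highest in OVA/Citra without overlap, by a smaller step. It had 30.4, 25.5 and 29.2 TPM in OVA/Citra, 19.7, 21.1 and 22.9 TPM in OVA and 23.97, 22.1 and 22.1 TPM in CTRL. Its log2 change was 0.304 for OVA/Citra against CTRL (adjusted p = 0.00995). Derl3, close to the detection limit at 0.489 to 2.92 TPM, had a log2 change of -0.54 in OVA/Citra against OVA, which did not pass (adjusted p = 0.133). Gstt4 had at most 1.35 TPM in any library and was not tested.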
